A study of Mus musculus with 93 samples.

Results

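In all, 38 genes of the lysosome, led by progranulin (Grn), were followed in the cerebral cortex of mice that carry one inactivated copy of Chd8 and of wild-type (WT) mice, most of them littermates. The 38 members were chosen by their membership of a list of lysosomal hydrolases, membrane proteins, acid pump subunits and regulators, out of 24528 genes in each deposited table. The list was drawn up because Grn was lower in mutants in the libraries of 18 months, so the values of that age are given as a description and without a test. The members divide by role into Grn and its partners (4 genes), cathepsins (7), hydrolases of glycans and glycosaminoglycans (11), lipid hydrolases (4), genes of neuronal ceroid lipofuscinosis (3), membrane proteins with the regulator Tfeb (5) and the acid pump (4). All 38 passed the filter on low values in both tables.

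Lysosomes digest proteins, glycans and lipids with hydrolases that work in an acid lumen, which a proton pump, the V-ATPase, maintains. Progranulin is a secreted glycoprotein that Sortilin (Sort1) and prosaposin (Psap) carry to the lysosome, where it is cut into granulins. In the human brain, loss of one copy of progranulin is a cause of frontotemporal dementia, and loss of both copies causes a form of neuronal ceroid lipofuscinosis. Tfeb is a transcription factor that switches on many lysosomal genes through a short DNA motif in their promoters. Grn is made by both neurons and microglia, and cathepsin S (Ctss) mostly by microglia.

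Bulk polyA RNA of 1 cortical hemisphere per mouse was sequenced from 93 mice, bred from Chd8V986*/+ males and C57BL/6J WT females. Chd8V986*/+ (HET) mice carry a premature stop in every cell, with no promoter or Cre driver involved. At postnatal day (PND) 5 there were 12 WT and 10 HET pups of oil-fed dams and 12 WT and 10 HET pups of dams fed the pyrethroid insecticide deltamethrin (DM), of both sexes. At 12 months there were 9 WT and 9 HET males of oil-fed dams, and 10 WT and 10 HET males of DM-fed dams. At 18 months there were 6 WT and 5 HET males with no feeding of oil or DM. Feeding of DM (3 mg/kg, in peanut butter) or of oil was repeated at intervals of 3 days from conception, and went on until PND 5 for the pups and PND 22 for the mice of 12 months. All mice of a litter shared 1 exposure, so DM differs between litters (6 oil and 7 DM litters at PND 5, 9 and 10 at 12 months) and genotype differs within them. At PND 5 most oil litters had 1 dissector and most DM litters the other, who also had all mice of 12 and 18 months. Exposure at PND 5 and age are thus partly tied to dissector, and their differences rest on the adjustment for it.

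The deposited values are on a log2 scale after a variance-stabilizing transformation, with technical terms removed, so that a doubling is about 1 unit for well-expressed genes and less than that for low ones. The files give no read counts, so the depth behind each value is unknown. The removal moved each gene's level, and levels are therefore compared between groups and not between genes. Each level quoted for PND 5 and 12 months is the deposited value after batch, sex, dissector and litter number were adjusted for, set to 0 at the mean of oil-exposed WT pups of PND 5. A gene is called where limma gives a Benjamini-Hochberg adjusted p under 0.05 over 15780 genes. The tissue label was checked on markers. Snap25 of neurons lay between 16.3 and 16.5 and Slc17a7 of excitatory neurons between 14.4 and 14.6 in the libraries of 18 months, where the lowest value of any gene was 7.2 and Ttr of the choroid plexus lay between 7.49 and 8.16.

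Chd8 itself checks the genotype labels. HET mice lay below WT mice of the same litter, sex and batch in 10 of 10 such comparisons at PND 5 with oil, in 9 of 9 and 10 of 10 litters at 12 months with oil and DM, and in 4 of 4 litters at 18 months. At PND 5 with DM they lay below in 8 of 9. The exception was the pair of females of litter B, where Chd8 was at 0.191 in the library labelled HET and at -0.481 in the library labelled WT, while the male labelled HET of that litter was at -0.471 and the male labelled WT at 0.2. Chd8 goes against both labels there. Counts of members called at PND 5 with DM and on the genotype average are given with and without these 2 libraries.

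Promoters of 5 members that were lower in HET mice are shown, Glb1, Ctsd and Sgsh with a palindromic E-box, CACGTG, the core of the motif that Tfeb binds, and Grn and Galc without it. Each window runs from 250 bases before to 50 bases after the transcription start, from RefSeq on GRCm38.p6, and the E-box is in capitals. In GENCODE, Grn starts at 102430315 and Ctsd at 142388038, both upstream of these RefSeq starts, and GENCODE starts were not searched.
Grn (chr11:102430257-102430556, plus strand): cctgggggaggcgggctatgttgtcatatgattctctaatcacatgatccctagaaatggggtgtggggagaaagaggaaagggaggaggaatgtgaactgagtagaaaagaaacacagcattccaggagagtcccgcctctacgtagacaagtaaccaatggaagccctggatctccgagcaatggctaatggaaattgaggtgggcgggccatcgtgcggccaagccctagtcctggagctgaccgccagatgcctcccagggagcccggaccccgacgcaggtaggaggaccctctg
Glb1 (chr9:114400828-114401127, plus strand): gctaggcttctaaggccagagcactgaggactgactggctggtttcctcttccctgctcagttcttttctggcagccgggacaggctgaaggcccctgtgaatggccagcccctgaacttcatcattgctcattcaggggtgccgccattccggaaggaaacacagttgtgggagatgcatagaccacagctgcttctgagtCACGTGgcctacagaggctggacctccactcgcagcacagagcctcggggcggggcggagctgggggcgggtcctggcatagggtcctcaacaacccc
Ctsd (chr7:142387778-142388077, minus strand): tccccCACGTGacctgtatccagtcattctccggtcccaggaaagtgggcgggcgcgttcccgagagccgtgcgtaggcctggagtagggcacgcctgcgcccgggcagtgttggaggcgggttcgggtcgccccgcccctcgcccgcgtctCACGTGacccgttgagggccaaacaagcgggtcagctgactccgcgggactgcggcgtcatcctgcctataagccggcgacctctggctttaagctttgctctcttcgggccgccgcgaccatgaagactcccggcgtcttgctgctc
Sgsh (chr11:119355461-119355760, minus strand): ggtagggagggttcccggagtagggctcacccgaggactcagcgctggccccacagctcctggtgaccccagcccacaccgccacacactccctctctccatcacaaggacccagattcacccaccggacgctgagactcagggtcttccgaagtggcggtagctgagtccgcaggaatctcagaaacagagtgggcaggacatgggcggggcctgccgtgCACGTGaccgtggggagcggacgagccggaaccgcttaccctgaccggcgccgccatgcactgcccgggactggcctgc
Galc (chr12:98259410-98259709, minus strand): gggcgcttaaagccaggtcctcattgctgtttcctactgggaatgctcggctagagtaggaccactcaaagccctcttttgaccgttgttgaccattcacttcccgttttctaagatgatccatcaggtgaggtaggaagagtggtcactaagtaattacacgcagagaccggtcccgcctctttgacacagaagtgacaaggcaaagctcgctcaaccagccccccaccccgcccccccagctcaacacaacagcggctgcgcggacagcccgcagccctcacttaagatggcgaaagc
Promoters of 34 of the 38 members were matched. CACGTG, which reads the same on both strands, stood in the window of 15 of the 34 (44.1%) and of 2187 of 27025 genes (8.09%). The longer palindrome TCACGTGA, which contains it, stood in 7 of the 34 members (20.6%) and in 304 of the 27025 genes (1.12%). Of 51 lysosomal genes outside the list, 12 (23.5%) had CACGTG and 7 (13.7%) had TCACGTGA. A match is a run of letters and not a measured binding site.

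Age set the largest differences. In oil-exposed WT mice 29 of the 38 members were higher at 12 months than at PND 5 and 4 were lower, against 39.3% of all genes called higher and 38.9% called lower. The median difference of the members was 0.61 and that of all genes 0.01. Ctss, a cysteine protease, rose from a median of -0.0202 (lowest -0.344, highest 0.359) to 2.81 (lowest 2.57, highest 3.39), by 2.86 (SE 0.126, adjusted p = 2.96e-33). Its libraries of the 2 ages did not overlap. Gaa, the acid alpha-glucosidase that degrades glycogen, rose by 1.71 (SE 0.087), from between -0.225 and 0.235 to between 1.5 and 1.83. Sort1 rose by 1.63 (SE 0.0842), Tpp1, a tripeptidyl peptidase, by 1.56 (SE 0.0571), and Neu1, a sialidase, by 1.32 (SE 0.049). Scarb2, a membrane protein of lysosomes, fell by 0.37 (SE 0.0431), and Ctsl, Glb1 and Gusb, the beta-glucuronidase, fell by 0.18, 0.18 and 0.17, Gusb without a call under the litter block (adjusted p = 0.0678).

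**Figure D1:**
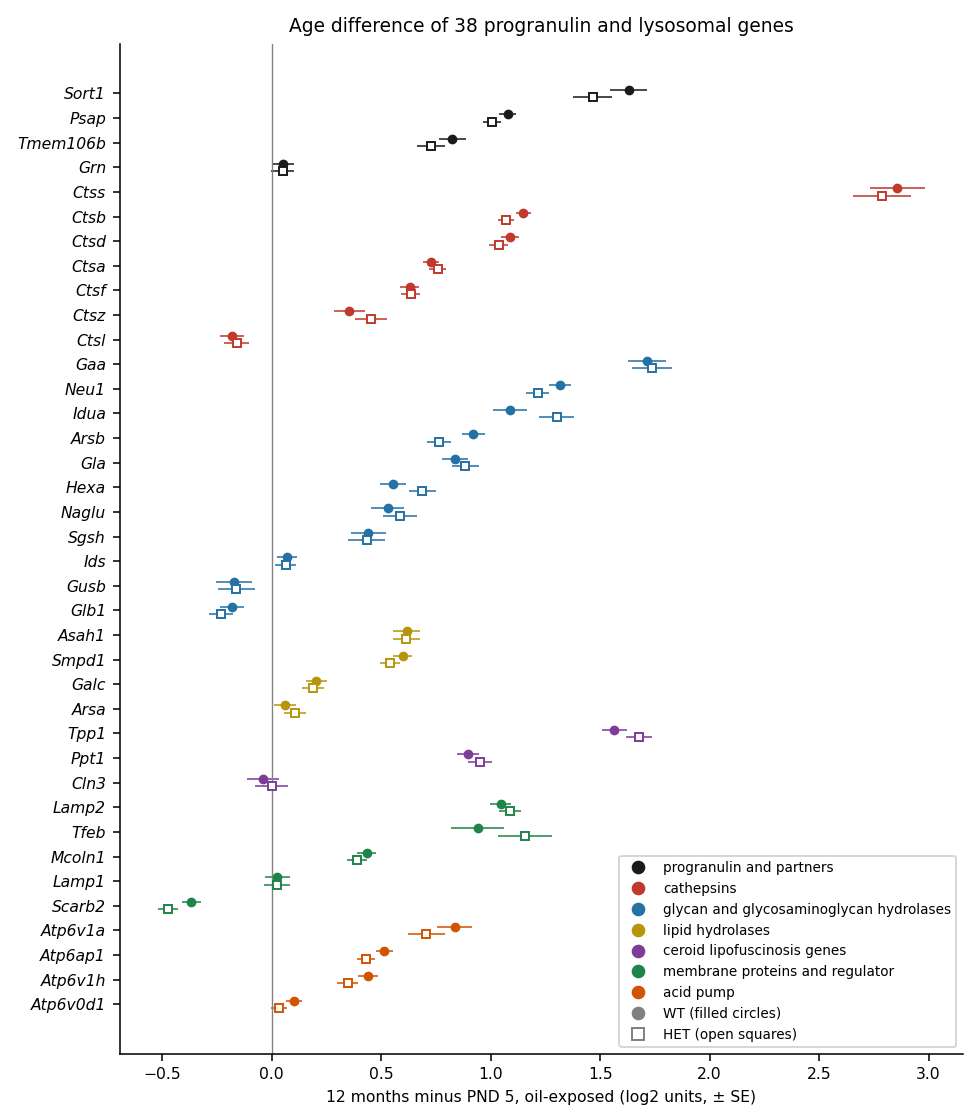
Difference between 12 months and PND 5 in oil-exposed mice for each of the 38 members (log2 units on the x axis, bars are the SE of the fit), in WT (filled circles) and HET mice (open squares), with role groups in colour. Most members lie right of 0, Ctss farthest at 2.86 in WT, while Grn lies at 0.05 and Scarb2 at -0.37.

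Grn did not follow most of its group across age. Its level was between -0.135 and 0.142 in oil-exposed WT pups and between -0.0206 and 0.258 in oil-exposed WT males of 12 months, a difference of 0.05 (SE 0.0502, adjusted p = 0.327), and of -0.0173 without batch 2. Its partners Psap and Tmem106b rose by 1.08 and 0.83. Lamp1, Arsa, Ids and Cln3 were not called with age in oil-exposed WT mice either, at 0.03, 0.06, 0.07 and -0.04. Among cathepsins 6 of 7 rose, among glycan hydrolases 8 of 11, among lipid hydrolases 3 of 4, and all 4 subunits of the acid pump. In oil-exposed HET mice 32 of 38 members were called with age, against 78.4% of all genes, 29 of them higher. For no member was the age difference called different between genotypes (0 called, 0% of all genes, 5 members at an unadjusted p under 0.05). Of 65 other lysosomal genes 46 rose and 7 fell in WT mice. Markers of microglia rose with age in 15 of 15 cases (median 1.78), as did 7 of 7 of oligodendrocytes (median 4.70) and 6 of 8 of astrocytes (median 0.99), and 7 of 8 of neurons (median 1.94), while 1 astrocyte marker, 1 neuron marker and 4 of 7 endothelial markers fell. Fewer cells of a type and less RNA per cell cannot be told apart in bulk tissue, and the part of cell composition in the age differences was not tested.

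Genotype differences were small and mostly in one direction. At 12 months with oil, 30 of the 38 members lay lower in HET mice, against 8180 of all 15780 genes. The median was -0.05 for the members and -0.01 for all genes. Of the members 2 were called, both lower, against 1.77% of all genes. Glb1, the acid beta-galactosidase, was between -0.288 and -0.0145 in WT mice (median -0.169) and between -0.558 and -0.0973 in HET mice (median -0.332), so the groups overlapped. It fell by 0.16 (SE 0.0447, adjusted p = 0.0418), and was lower in 8 of 9 HET littermates. Ctsb, a cysteine cathepsin, was between 1.09 and 1.21 in WT mice (median 1.14) and between 0.878 and 1.12 in HET mice (median 1.03). It fell by 0.12 (SE 0.0291, adjusted p = 0.0238) and was lower in 9 of 9 HET littermates. Neither was called without batch 1 (adjusted p = 0.0962 for Glb1 and 0.0929 for Ctsb), 2 (0.0582 and 0.058) or 4 (0.172 and 0.12), nor was Glb1 without batch 3 (0.0926), at differences from -0.18 to -0.14 for Glb1 and from -0.13 to -0.10 for Ctsb.

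With litter as a block, 9 members were called at 12 months with oil, against 15.1% of all genes. The 8 lower were Ctsb, Atp6v1a, Glb1, Sort1, Arsb, Psap, Tmem106b and Scarb2. Atp6v1a, the catalytic subunit of the pump, differed by -0.16 (SE 0.0398, adjusted p = 0.00503 with the block and 0.171 without), and Sort1 by -0.13 (SE 0.0323, adjusted p = 0.00593 with the block and 0.305 without). Tfeb was the member that rose, by 0.27 (SE 0.0852, adjusted p = 0.0274 with the block and 0.136 without). Its littermate differences split widely, from -0.107 to 0.632, and HET mice were lower in 4 of 9 litters. Tfeb is a low gene, between 8.089 and 8.285 in the libraries of 18 months, where the lowest value of any gene was 7.2. Ctss differed by -0.13, Asah1, the acid ceramidase, by -0.06, and Ppt1, a palmitoyl thioesterase, by -0.05 without a call. Of the other lysosomal genes, the pump genes Atp6ap2 and Atp6v1b2 and the GTPase Rraga, which tethers mTORC1 to lysosomes, fell by 0.14, 0.15 and 0.12 (adjusted p = 0.0328 for each, no block). Cell type markers moved in this comparison too. Astrocyte markers lay higher in 7 of 8 cases (median 0.13, 0 called, and 3 with the block), those of neurons lower in 5 of 8 (median -0.10, 1 called, and 3 with the block), of oligodendrocytes lower in 6 of 7 (median -0.13, 0 called, and 1 with the block) and of choroid plexus lower in 4 of 4 (median -0.45, 0 called, and 1 with the block). By library, the mean of the choroid plexus list had nearly the same median, 1.0 in WT and 0.997 in HET mice. Its highest library was at 3.67 in WT and at 1.47 in HET mice. Endothelial markers had a median of 0.02 (0 called, and 1 higher with the block) and microglia markers of 0.03 (0 of 15 called in both fits). The part of these markers in the members' differences was not tested.

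At 12 months with DM, 28 of 38 members lay lower (median -0.03), against 8639 of all 15780 genes (median -0.01). Of the members 2 were called, again both lower, against 3.56% of all genes. Glb1 fell by 0.16 (SE 0.0424, adjusted p = 0.023) and was lower in 9 of 10 HET littermates. Galc, which removes galactose from the myelin lipid galactosylceramide, was between 0.218 and 0.373 in WT mice (median 0.27) and between -0.0422 and 0.294 in HET mice (median 0.134), with most HET libraries below the WT range. It fell by 0.16 (SE 0.0373, adjusted p = 0.00958) and was lower in 9 of 10 HET littermates. Without batch 2 neither was called (adjusted p = 0.104 for Glb1 and 0.0701 for Galc), nor Glb1 without batch 4 (0.134) or Galc without batch 3 (0.0947). Markers of oligodendrocytes, cells rich in Galc, had a median of -0.01 there with 0 of 7 called, and microglia markers of 0.02 with 0 of 15 called, in both fits. Astrocyte markers lay higher in 7 of 8 cases (median 0.06, 1 called, and 3 with the block), endothelial markers lower in 5 of 7 (median -0.09, 0 called, and 1 with the block), and of 8 neuron markers (median 0.01) 0 were called, and 1 lower with the block. Their part in the members' differences was not tested. With the litter block 8 members were called, all lower, against 14.3% of all genes: Glb1, Galc, Scarb2, Arsb, Ctsl, Ctsb, Ppt1 and Sort1. Tfeb was at 0.21 (SE 0.0808, adjusted p = 0.0688 with the block), higher in 9 of 10 HET littermates. Of the other lysosomal genes Rragd fell by 0.13 and Mfsd8, a lysosomal membrane transporter whose human gene underlies a ceroid lipofuscinosis, rose by 0.15 (adjusted p = 0.0294 and 0.0331). The exposure by genotype interaction at 12 months called no member (0 called, 0% of all genes, and 1 member at an unadjusted p under 0.05).

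**Figure D2:**
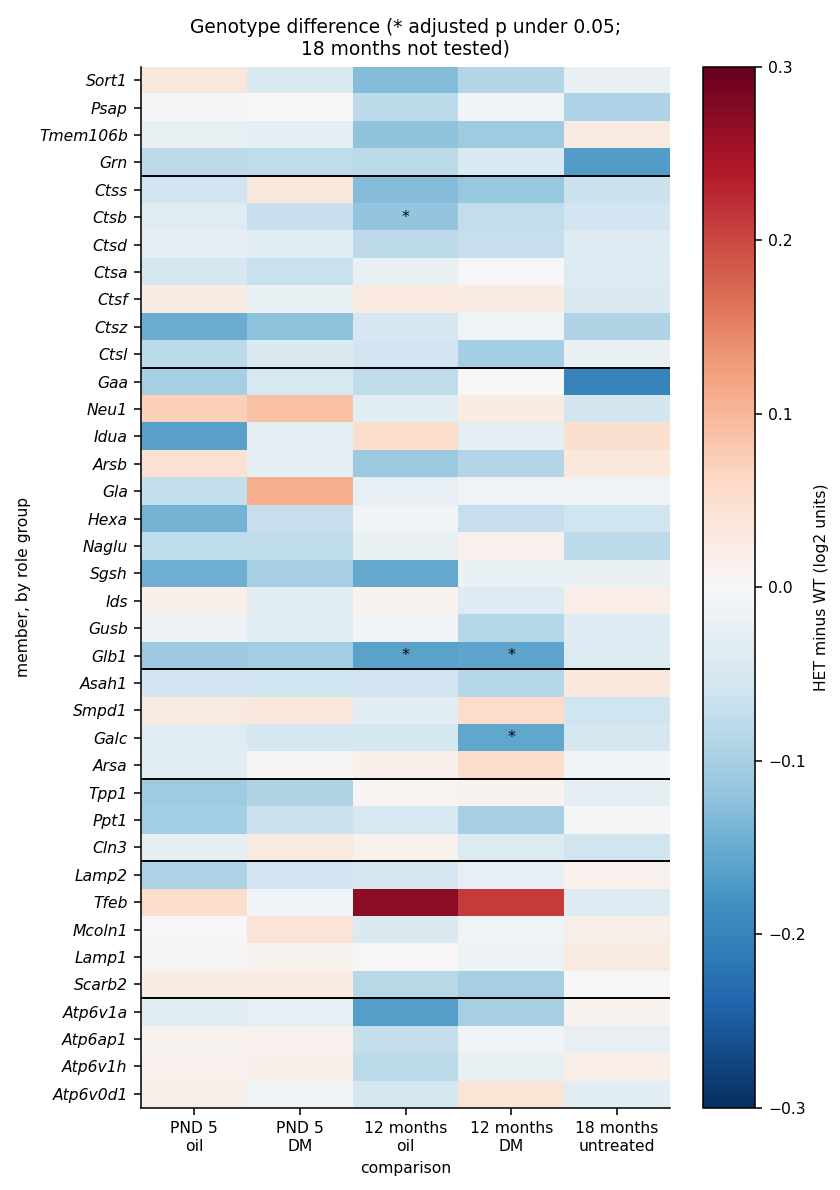
HET minus WT difference (log2 units, colour) of each member (rows, grouped by role) in the 5 genotype comparisons (columns), where an asterisk marks an adjusted p under 0.05 in the fit without the litter block and 18 months was not tested. Blue prevails in each column, with 30 of 38 members lower at 12 months with oil (8180 of all 15780 genes), and Tfeb is the darkest red cell at 0.27.

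At PND 5 no member was called without the block. With oil, 26 of 38 members lay lower (median -0.03), against 8039 of all 15780 genes (median -0.001). Of the members 9 had an unadjusted p under 0.05, while 0.558% of all genes were called (1176 at an unadjusted p under 0.05). With the litter block Hexa, the alpha subunit of beta-hexosaminidase, fell by 0.13 (SE 0.0345, adjusted p = 0.0437) as the 1 member called, against 1.36% of all genes. Of the other lysosomal genes Dpp7, a dipeptidyl peptidase, fell by 0.22 (adjusted p = 0.0338). With DM, 26 of 38 lay lower (median -0.03), against 8515 of all 15780 genes (median -0.01). Of the members 7 had an unadjusted p under 0.05, while 0.234% of all genes were called, and 0.292% with the block, no member among them. Without the females of litter B no member was called there either (0.532% of all genes), with a median of -0.04. At PND 5 no marker of microglia, astrocytes, oligodendrocytes, neurons or endothelial cells was called for genotype, while all 7 endothelial markers lay lower with oil (median -0.07) and with DM (median -0.12). In the DM comparison Glb1 differed by -0.11 (SE 0.0409) with the litter B females and by -0.13 (SE 0.0425) without. At PND 5 the same interaction called no member, with or without these females (0% of all genes, and 1 member at an unadjusted p under 0.05).

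The PND 5 and 12 month comparisons share no mice, and the genotype difference was also averaged over the 4 of them with equal weight, a comparison added after the data had been seen. On that average 12 members fell and 1 rose, against 14.2% of all genes called. The median was -0.04 for the members and -0.01 for all genes. Glb1 fell by 0.13 (SE 0.0212, adjusted p = 3.97e-06, 29 of 32 litters lower), a change of -8.80% if a unit is read as a doubling. Ctsb fell by 0.07 (SE 0.0138, adjusted p = 7.12e-05, 28 of 32 litters), Galc by 0.07 (27 of 32) and Ppt1 by 0.08 (27 of 32). Grn fell by 0.07 (SE 0.0198, adjusted p = 0.00997), a change of -4.78% on the same reading, and was lower in 24 of 32 litters. Its call was lost without batch 2 (-0.07, adjusted p = 0.0544), without batch 3 (-0.06, 0.107), in males alone (-0.07, 0.0805) and in the libraries of 1 dissector (-0.07, 0.0618), while Glb1 and Ctsb kept theirs in each alternative tried.

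The other members that fell on the average were Sgsh, a sulfatase of heparan sulfate, by 0.11, the cathepsins Ctsl, Ctsd and Ctsz by 0.07, 0.05 and 0.08, Hexa by 0.07, the membrane proteins Lamp2 by 0.06 and Tmem106b by 0.07. Tfeb rose by 0.13 (SE 0.0471, adjusted p = 0.0492), and lost the call without batch 1 (0.08, adjusted p = 0.35), 2 (0.323) or 4 (0.131), with no filter (0.0618) and with an intensity trend (0.0524). With the litter block, here a random effect, 17 members were called, 16 lower, against 24.6% of all genes. Without the females of litter B 14 were called, 13 lower, against 14.4% of all genes. Males alone gave 3 calls and the libraries without batch 2, 3 and 4 gave 4, 5 and 8, where 7.49%, 3.9%, 15.7% and 11% of all genes were called, at medians of -0.04 in each. Of 65 other lysosomal genes 12 fell and 2 rose. Of 15 microglia markers 0 were called on this average, with or without the block (0 at an unadjusted p under 0.05, median 0.01, from -0.06 to 0.06), while of neuron markers 3 of 8 and of endothelial markers 2 of 7 fell (3 of each with the block), 1 of 8 astrocyte markers rose, and 1 of 7 oligodendrocyte markers fell with the block only. The part of these markers in the members' differences was not tested.

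**Figure D3:**
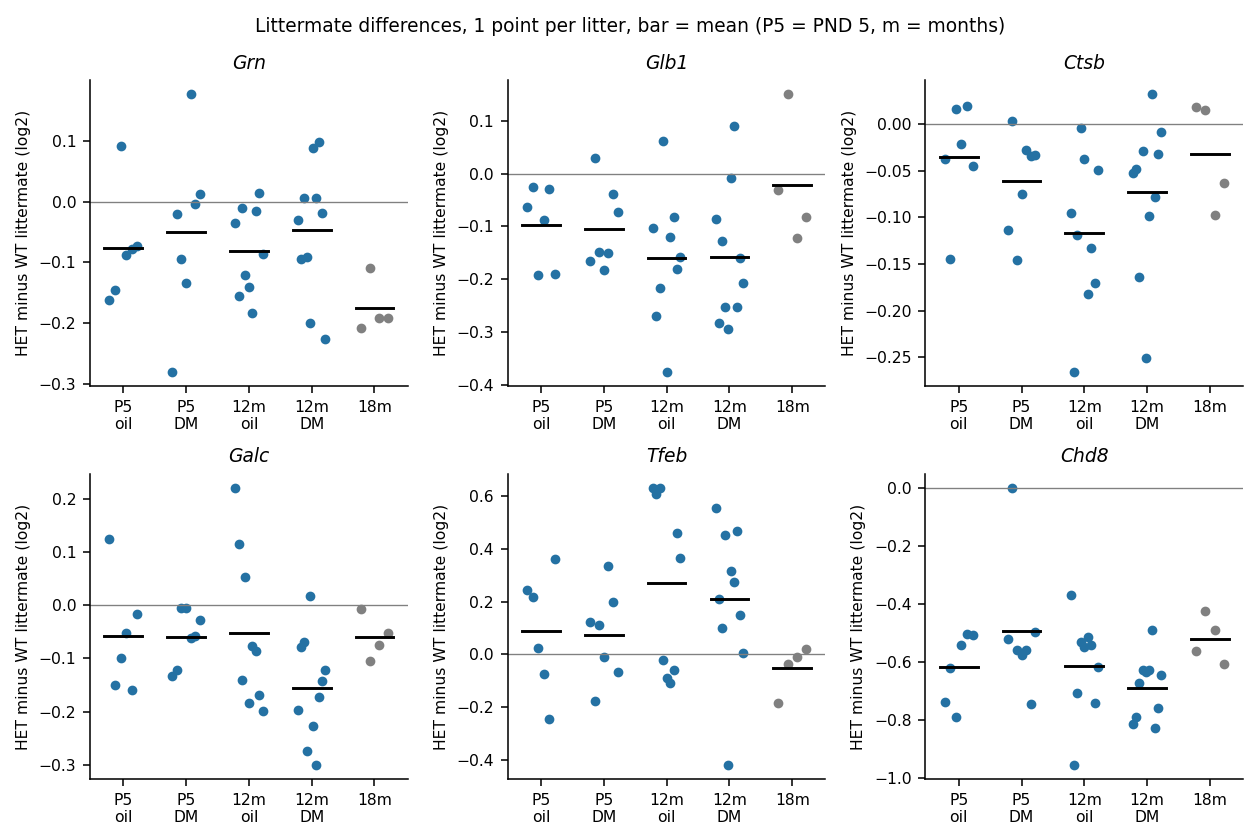
HET minus WT difference within each litter (log2 units on the y axis, 1 point per litter, bar is the mean) for 6 genes in the 5 genotype comparisons, with 18 months in grey. Glb1 lies below 0 in 29 of 32 litters of PND 5 and 12 months and Ctsb in 28, Tfeb spreads up to 0.632 at 12 months with oil, and the Chd8 point at 0 belongs to litter B.

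Grn was tested on its littermate differences at each age and exposure. At 12 months with oil it was between -0.0206 and 0.258 in WT mice (median 0.0217) and between -0.133 and 0.137 in HET mice (median -0.0236), and 8 of 9 litters had the HET mouse lower, by 0.0814 on average (SD 0.0723). An exact sign-flip permutation test, two-sided, gave p = 0.0117, and 0.0468 after adjustment over the 4 comparisons. Without batch 1 the adjusted p was 0.188, with 6 of 7 litters lower. At 12 months with DM 6 of 10 litters were lower (mean -0.0464, exact p = 0.195, adjusted 0.26). At PND 5, 5 of 6 oil litters were lower (mean -0.076, exact p = 0.156, adjusted 0.26) and 5 of 7 DM litters (mean -0.0493, exact p = 0.422, and -0.0639, exact p = 0.297, without the females of litter B). In the fit over all genes Grn was at -0.08, -0.08, -0.08 and -0.05 at PND 5 with oil, PND 5 with DM, 12 months with oil and 12 months with DM (limma adjusted p = 0.646, 0.824, 0.282 and 0.55). The smallest p that 6, 7, 9 and 10 litters allow is 0.0312, 0.0156, 0.00391 and 0.00195.

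At 18 months the HET mice were read as a description, since the fall of Grn there chose the members. Grn was at 10.62, 10.67, 10.72, 10.63 and 10.61 in the 5 HET libraries, and at 10.83, 10.81, 10.82, 10.83, 10.8 and 10.81 in the 6 WT libraries. All HET libraries lay below all WT libraries, as they did in 1.2% of all genes (1.18% had HET above). The difference was -0.17 (SE 0.0307), or -10.9% if a unit is read as a doubling. It lay between -0.209 and -0.109 in the 4 litters with both genotypes. The difference of Grn on the average of the younger mice was -0.07, and the change with age was not tested.

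Psap was the other member without overlap, at 15.26, 15.28, 15.3, 15.28 and 15.25 in HET and at 15.39, 15.36, 15.35, 15.32, 15.41 and 15.35 in WT libraries. Its difference was -0.09 (SE 0.0301), and -0.02 (adjusted p = 0.342) on the average of the younger mice. Gaa had the largest difference, -0.20 (SE 0.058), from 12.52, 12.65, 12.8, 12.74 and 12.49 in HET to 12.93, 12.76, 12.86, 12.92, 12.87 and 12.72 in WT libraries, which overlapped. In all 27 of 38 members lay lower, with a median of -0.03 against 0.00024 over all genes. Ctsz was at -0.09, and Smpd1, the acid sphingomyelinase, and Cln3 at -0.06. Glb1, Ctsb and Galc lay at -0.04, -0.06 and -0.05, Tfeb at -0.04 and Atp6v0d1 at -0.03. Microglia markers lay on both sides of 0, lower in 7 of 15, from -0.12 for C1qb to 0.16 for P2ry12 (their mean was between 9.72 and 9.79 in HET and between 9.7 and 9.9 in WT libraries). Endothelial markers lay lower in 7 of 7 cases (median -0.06), oligodendrocyte markers lower in 6 of 8 (median -0.04), neuron markers lower in 6 of 8 (median -0.04) and astrocyte markers higher in 7 of 8 (median 0.07). HET libraries lay above all WT libraries for Aldh1l1 of astrocytes and Gad2 of inhibitory neurons. The part of these markers in the members' values was not tested.

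**Figure D4:**
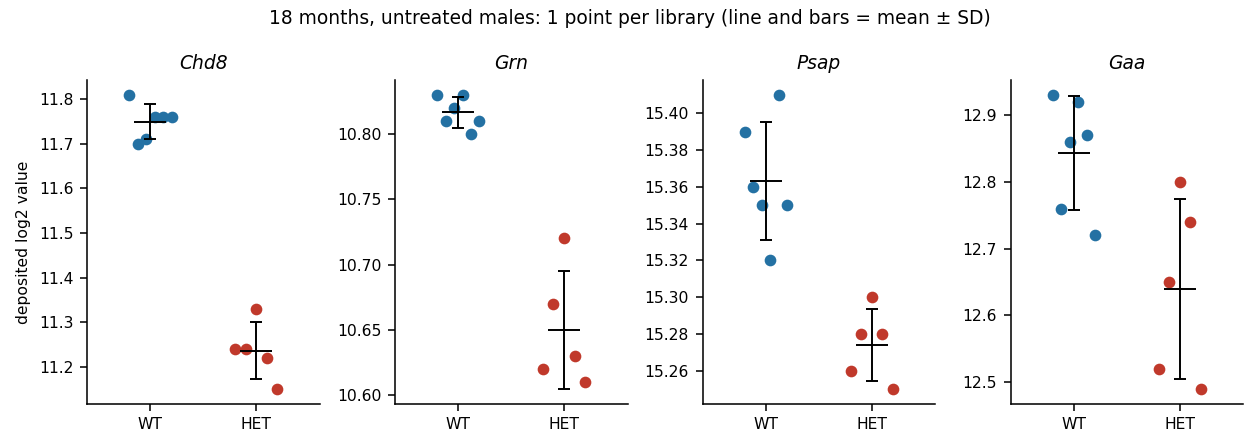
Deposited log2 values (y axis) of Chd8, Grn, Psap and Gaa in each library of 18 months, 6 WT and 5 HET, with mean and SD. HET points lie below all WT points for Chd8, Grn and Psap, for Grn at 10.61 to 10.72 against 10.8 to 10.83, and overlap for Gaa.

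DM at PND 5 was compared between litters, since each litter has 1 exposure, and the calls of members depend on how litters enter the fit. With litter as a random effect limma called no member in WT or HET pups, against 0% and 0.0253% of all genes (12 and 11 members and 2404 and 2059 of all genes at an unadjusted p under 0.05). With pups taken as separate, which leaves out that littermates share a dam, 6 members were called higher and 2 lower in WT pups, against 8.19% of all genes. The adjusted p values that follow are of that fit unless the litter effect is named. Gaa was between -0.225 and 0.235 with oil (median 0.00578) and between 0.0523 and 0.454 with DM (median 0.257), a difference of 0.25 (SE 0.0654, adjusted p = 0.0127, and 0.118 with the litter effect). Grn was between -0.135 and 0.142 with oil and between 0.0516 and 0.285 with DM, a difference of 0.17 (SE 0.0378, adjusted p = 0.00414, and 0.0857 with the litter effect). Both groups overlapped in part. The other members called higher were Sgsh at 0.18, Smpd1 at 0.11, Ctsa, the protective protein of beta-galactosidase and sialidase, at 0.10, and Psap at 0.09. Scarb2 was at -0.14 (SE 0.0324, adjusted p = 0.00505, and 0.0849 with the litter effect) and Gla, the alpha-galactosidase, at -0.14 (adjusted p = 0.0349, and 0.208 with it).

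In HET pups 2 members were called higher and 1 lower in the same fit, against 1.91% of all genes. Gaa was at 0.30 (SE 0.0719, adjusted p = 0.0179, and 0.122 with the litter effect), Grn at 0.17 (SE 0.0415, adjusted p = 0.0188, and 0.139 with it), and Scarb2 at -0.14 (SE 0.0357, adjusted p = 0.0225, and 0.155 with it). Without the females of litter B 6 members were called in WT pups (5.57% of all genes) and 1, Grn, in HET pups (0.444%). Without batch 1 it was 5 in WT (4.59%) and 0 in HET pups (0%), without batch 3 it was 2 in WT pups (2.42%), and without batch 2 it was 0 in both (0.387% and 0.0127%). By litter, Gaa was between -0.234 and 0.0711 in 6 oil litters and between 0.102 and 0.306 in 7 DM litters, and Grn between -0.102 and 0.0297 and between 0.043 and 0.213. These litters did not overlap by exposure, while those of Scarb2, Tfeb, Sgsh and Gla did. For Sgsh oil litters reached 0.0294 and DM litters began at -0.0826. For Gla oil litters began at -0.12 and DM litters reached -0.0373. The share of all genes whose litters separate in this way was not counted, so the separation is a description only. Markers of several cell types moved with DM in the fit of separate pups. In WT pups endothelial markers lay higher in 7 of 7 cases (median 0.15, 2 called), microglia markers in 13 of 15 (median 0.11, 4 called) and neuron markers in 7 of 8 (median 0.09, 1 called), while 1 astrocyte marker was called higher and 1 oligodendrocyte marker in each direction. In HET pups endothelial markers lay higher in 7 of 7 cases (median 0.10, 0 called), microglia markers in 11 of 15 (median 0.08, 1 called) and neuron markers in 7 of 8 (median 0.05, 1 called), and 1 oligodendrocyte marker was called lower. With the litter effect 0 of these markers were called. The mean of the microglia list ran from -0.148 to 0.196 in oil-exposed and from -0.234 to 0.4 in DM-exposed WT pups, that of the endothelial list from -0.382 to 0.162 and from -0.0627 to 0.442, and their part in the members' differences was not tested.

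**Figure D5:**
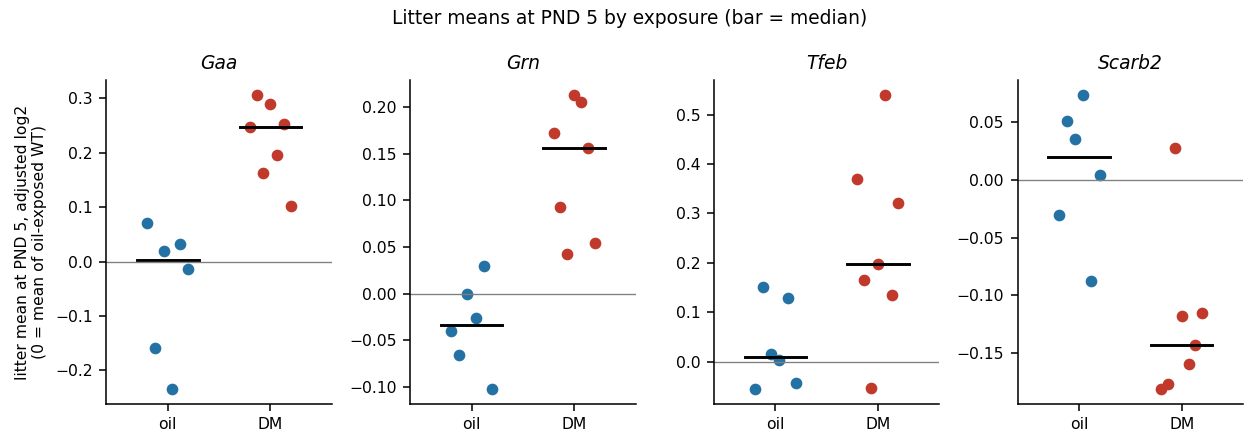
Litter means at PND 5 (adjusted log2 values on the y axis, 0 is the mean of oil-exposed WT pups, 1 point per litter, bar is the median) of 4 members, for 6 oil litters and 7 DM litters. DM litters of Gaa (0.102 to 0.306) and Grn (0.043 to 0.213) lie above all oil litters, those of Tfeb and Scarb2 overlap with them. The share of all genes whose litters separate was not counted, and no member was called for DM with litter as a random effect.

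At 12 months, after feeding of the dams had ended at PND 22, no member was called between DM and oil. In WT mice 1 member had an unadjusted p under 0.05 (530 of all genes) and 0% of all genes were called. In HET mice 0 members did (495 of all genes), and 0.00634% of all genes, a single one, were called. The members' differences lay between -0.09 and 0.09 in WT mice (median -0.02) and between -0.08 and 0.07 in HET mice (median -0.01). Grn was at -0.04 in WT and -0.01 in HET mice. No test compared the DM difference between the ages.

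Members were also read by position on mm10 (GENCODE M21). Grn spans chr11:102430315-102437048 on the plus strand, and overlaps Fam171a2 on the other strand. The library kit keeps strand, and whether the counting used it is not given in the sources used here, so reads of overlapping genes may be shared. Fam171a2 differed by 0.10 (SE 0.0396, adjusted p = 0.0677) on the average of genotype at PND 5 and 12 months, opposite to Grn, by -0.12 (SE 0.053) at 18 months, and by 0.23 (SE 0.0756, adjusted p = 0.0444, pups taken as separate) with DM in WT pups, in the direction of Grn. Glb1 spans chr9:114401076-114474898 on the plus strand and overlaps Tmppe of the same strand, which differed by -0.06 (SE 0.0324, adjusted p = 0.179) on the average. Ctsb spans chr14:63122462-63145923 and overlaps Fdft1 of the other strand, which differed by -0.02 (adjusted p = 0.319). In all 13 of the 38 members overlap another protein-coding gene. By promoter, the 15 members with CACGTG had a median genotype difference of -0.03 (4 fell, 0 rose) and the 19 without it of -0.045 (7 fell, 1 rose), and median age differences of 0.44 and 0.83 in oil-exposed WT mice.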

How the data were processed

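Reads were quality-filtered, adapter-trimmed (cutadapt), mapped by STAR 2.5.2b to mm10 and quantified by Salmon, and DESeq2 applied a variance-stabilizing transformation, per the labels and Methods. The values the authors deposited are in log2 units, and technical terms have been taken out of them. This was seen in the files: regressed alone on the batch, sex, dissector or litter numbers, each gene of the younger table gave a coefficient of 0, as did those of 18 months on litter rank. The removal did not hold the groups, so the same terms were kept in each fit. R 4.3.3 with limma 3.58.1 (statmod 1.5.0) fitted 8 groups, batch (as a factor), sex, dissector and litter number over 82 libraries, and genotype and litter rank over the 11 of 18 months. The fits were tested on simulated tables, with and without such a removal. Genes with 2 or more littermate pairs at identical values were dropped, which left 15780 and 16887 genes. For the litter block, litter was a factor for each separate genotype comparison and for the interactions. It was a random effect (correlation 0.333) for the genotype average, DM and age. The litters come from the labels, and residuals of littermates correlated with a median of 0.18 over 74 pairs, against -0.0126 over 3247 other pairs. Littermates are separate animals.

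The members and lists were chosen with earlier results of these data known. By the rule for named genes, Grn, Chd8, members called for genotype or DM, the member of each role group with the largest difference at 12 months (oil) and at 18 months, the 5 largest rises and falls with age, and at most 6 other lysosomal genes called are named. Of the 5 falls with age, Cln3 (-0.04) was not called. Members not called with age in oil-exposed WT mice are named beside Grn. The genotype average and the fits without the females of litter B were added after the data had been seen. Other filters, an intensity trend, weights, centring, batch coding and left-out batches, sexes and dissectors were tried as alternatives.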

Additional observations from a re-analysis of the deposited data

Results flagged for a closer look

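In groups of 4 to 10 libraries the highest or lowest value stood apart from its neighbours, by Dixon's criterion, in 7 of 64 groups tested, where chance gives about 5%. Grn was at 0.258 in replicate 4 of the WT males of 12 months with oil, the others reaching 0.105. Ctsb was at 0.878 in replicate 2 of the HET males of 12 months with oil, the others lying from 1.01 to 1.12. Galc was at 9.87 in replicate 2 of the HET males of 18 months, the others at 9.8 to 9.81. Tfeb was at 0.708 in the HET male 3 of PND 5 with DM, the next at 0.353. Gaa was at -0.406 in the HET male 3 of PND 5 with oil, the next at -0.171, and at 2.03 in replicate 5 of the WT males of 12 months with DM, the next at 1.7. Chd8 was at 0.191 in the HET female 1 of PND 5 with DM, the litter B library described above, the next at -0.411.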

How the results depend on the processing

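The number of members called, at an adjusted p under 0.05 from limma, moved with the processing while the medians stayed below 0 on the genotype average. For genotype at 12 months with oil (2 called) it was 0 with batch number as 1 term and without batch 1, 2 or 4, 1 in males alone, in dissector 2 alone and with sample weights, 5 with each age fitted on its own and 9 with the litter block. For 12 months with DM (2 called) it was 0 without batch 2, 1 without batch 3 or 4, 4 with weights, 5 with each age on its own and 8 with the block. At PND 5 with oil (0 called) it was 1 with the block and 2 with weights. For DM in WT pups (8 called) it was 0 with the block, without batch 2, in males and in dissector 2 alone, 2 without batch 3, 5 without batch 1 or with batch number, and 13 with weights. For DM in HET pups (3 called) it was 0 with the block, without batch 1 or 2, in males and in dissector 2 alone, 1 without the females of litter B, 5 with each age on its own and 9 with weights. For the genotype average (13 called) it was 3 in males, 4, 5 and 8 without batch 2, 3 and 4, 6 with batch number and 8 in dissector 2 alone. The share of all genes called moved between these fits too. For genotype at 12 months it went from 1.77% to 15.1% with the block with oil, and from 3.56% to 14.3% with DM. For genotype at PND 5 with oil it went from 0.558% to 1.36%. For DM it went from 8.19% to 0% in WT pups and from 1.91% to 0.0253% in HET pups. For the genotype average it went from 14.2% to 24.6%. Where that share is not given, a count of members is no result about the members. Grn with age changed sign without batch 2 (-0.0173). Its littermate difference at 12 months with oil missed the threshold without batch 1 (-0.0777, adjusted p = 0.188). At 18 months Grn lay between -0.185 and -0.156 with 1 library left out, reaching the former without HET replicate 3. Of 539 values of single genes under the alternatives 398 stayed the same, 140 kept the direction only and 1 changed sign. To stay the same was to keep direction and side of the threshold. For Psap and Gaa at 18 months, which were not tested, it was to keep direction and move by less than the SD of WT libraries. The cause of these moves was not tested, and fits on fewer libraries have fewer mice. The fits without the females of litter B were chosen after seeing the data. The paper gives a median depth over all samples, while the depth of each library is unknown and sets no stated limit.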
